A study of Mus musculus with 3 samples.

Results

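Nonsense-mediated decay transcripts were followed here in RNA bound to chromatin in mouse macrophages. A transcript was included when its annotated class was nonsense_mediated_decay and its abundance was 2 or more TPM, a transcript's length-scaled part of its library, in all 3 RSEM-format transcript tables. Of 7186 annotated transcripts of this class, 792 (11.0%) met the rule, in tables that hold 141864 transcripts. The same threshold was met by 17.0% of all transcripts, 17.4% of protein_coding and 39.0% of retained_intron transcripts. The 792 members belonged to 675 parent genes, of which 674 are protein-coding genes and 1 (Hyi) is a polymorphic pseudogene. The members were thus selected on RSEM-format TPM, so these levels are given as a description. The kallisto-format tables did not enter the rule, but they were made from the same reads and do not form independent libraries. Choosing on RSEM-format values also favours transcripts that this quantification happens to place high.

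The libraries came from bone-marrow-derived macrophages of the C57BL/6J mouse strain, which are primary cells grown from marrow precursors. All 3 belonged to 1 condition: 100 ng/ml Lipid A for 12 h, washout for 12 h, then 100 ng/ml Lipid A for 10 min. Lipid A, the membrane anchor of lipopolysaccharide, activates macrophages through TLR4. The labels call the libraries biological replicates of separate biosamples under 1 shared donor identifier, state that age and sex were not collected, and give RNA inputs of 1 µg, 250 ng and 500 ng for replicates 1, 2 and 3. Chromatin RNA was depleted of ribosomal RNA before sequencing. No other condition was analysed, so each comparison lies between transcripts, between gene groups or between replicates. Values are mean ± SD over the 3 libraries unless stated, and the SD measures only the spread between these libraries.

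Nonsense-mediated decay is the pathway that removes mRNAs whose coding frame ends too early. A ribosome that stops well upstream of an exon junction leaves the protein complex of that junction in place, and the factors UPF1, UPF2 and UPF3 with the kinase SMG1 then mark the RNA for decay. Recognition depends on translation, which takes place in the cytoplasm, so RNA on chromatin precedes it. Many genes of splicing factors carry a poison exon, an alternative exon with a stop codon in frame, and use it to limit their own protein. The class name is an annotation made from transcript structure. It records where the stop codon lies and does not measure decay.

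The members reached their early stop codon in different ways, which their coding sequences show. The sequences below are spliced coding RNA from the GENCODE M21 transcripts (mm10), written as DNA from 5′ to 3′ and ending with the stop codon. In the first set the stop lay in an exon that no protein_coding transcript of the gene contains. Capitals mark bases outside the exons of protein_coding transcripts, and for Tra2a only the last 90 bases of a longer run are shown.
Rsad2-202: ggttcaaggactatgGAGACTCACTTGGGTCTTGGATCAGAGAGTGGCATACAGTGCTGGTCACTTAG
Srrm2-203: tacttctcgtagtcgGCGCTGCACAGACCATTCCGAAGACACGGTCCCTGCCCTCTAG
Rbm39-223: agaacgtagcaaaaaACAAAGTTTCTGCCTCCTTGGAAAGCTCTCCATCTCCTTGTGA
Tra2a-202: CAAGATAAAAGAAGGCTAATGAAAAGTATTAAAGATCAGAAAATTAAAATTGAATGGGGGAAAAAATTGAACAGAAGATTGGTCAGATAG

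The stop codons of these 4 transcripts lay at chr12:26452355-26452357 (minus strand), chr17:23811857-23811859 (plus), chr2:156174126-156174128 (minus) and chr6:49252965-49252967 (minus). The frame ran 53 bases into the added exon in Rsad2-202, 43 in Srrm2-203, 43 in Rbm39-223 and 144 in Tra2a-202, stop codon included.

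In the second set the stop lay in an extension of an exon that protein_coding transcripts share. Capitals again mark bases outside their exons.
Ddx5-208: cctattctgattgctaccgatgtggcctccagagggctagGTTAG
Trafd1-208: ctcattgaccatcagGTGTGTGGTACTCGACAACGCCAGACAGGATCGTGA
Oas1g-203: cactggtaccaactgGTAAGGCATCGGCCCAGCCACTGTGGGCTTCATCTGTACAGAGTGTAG
Son-212: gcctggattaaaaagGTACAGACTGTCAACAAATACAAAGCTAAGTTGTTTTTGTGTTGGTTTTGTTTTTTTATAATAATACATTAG

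In each of these the capitals begin with GT, the usual first bases of an intron, so the frame ran past an exon end that coding transcripts splice. Ddx5-208 reached the end of its stop codon 5 bases past that point, at chr11:106783954-106783956 (minus strand). The distances were 36 bases in Trafd1-208, 48 in Oas1g-203 and 72 in Son-212.

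In the third set the stop lay in bases that protein_coding transcripts also translate, read in another frame. Capitals mark the stop codon.
Mx1-205: atctgtagatggtccaaactgccttcgTAA
Mx1-210: aactgccttcgtaaagattttatcaaaTGA
Samhd1-204: tcgaacacagtctcggagtggggtaccTAG
Oasl2-205: aaccagcaccggcaatctacgagactcTGA

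All 4 of these transcripts skip a coding exon before the stop. Mx1-205 and Mx1-210 share a start codon with a protein_coding transcript, and Samhd1-204 and Oasl2-205 do not. Whether the skipped exon changed the frame was not tested. Samhd1-204 also holds a whole intron of a coding transcript. Mx1-205 and Mx1-210 ended in the same 77-base exon and overlap in sequence, with stop codons at chr16:97451528-97451530 and chr16:97451512-97451514 (minus strand).

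Over all members, the stop lay in shared coding bases in 384 (48.5%), in an exon absent from protein_coding transcripts in 173 (21.8%) and in an extended exon in 156 (19.7%). A further 59 (7.45%) carried the stop codon of a protein_coding transcript, followed by a spliced 3′ end. The rest stopped in untranslated exon bases of coding transcripts (11) or belonged to genes without a protein_coding transcript (9). Among 4096 transcripts of the class outside the rule, in genes at TPM 2 or more in all libraries, the 3 main structures made up 61.2%, 20.1% and 11.5%. TGA ended 54.9% of members, TAA 23.9% and TAG 21.2%. The 1798 protein_coding transcripts of the parent genes with an annotated stop had 50.6%, 26.5% and 22.9%.

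Nearly all members had the layout that defines the class. The last exon junction lay more than 50 bases beyond the stop codon in 786 of 792 (99.2%), against 99.4% of the others in expressed genes. The median distance was 518.5 bases, against 304, and 500 bases or more separated stop and last junction in 408 members (51.5%), against 31.6%. Members were also longer, with a median of 2292 against 931 bases, and had a median of 9 exons against 7. Transcript support level 1, the best supported grade of the annotation, was held by 338 members (42.7%) and by 24.9% of the others. The start codon was shared with a protein_coding transcript in 571 members (72.1%), against 66.5% of the others. The 5′ end of the frame was not found in 195 members (24.6%), against 31.8%.

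An exon that held a whole intron of a protein_coding transcript was present in 109 of 783 members (13.9%), against 98 of 4093 others (2.39%). Ddx5-208, Samhd1-204 and Psmc5-202 held 1 such intron, Trafd1-208 and Vps11-205 held 2, Zup1-207 held 5 and Fes-205 held 6. Unspliced RNA of the same gene covers the same bases, and on chromatin these sources cannot be told apart in these tables. Members with such an exon had a median share of their gene of 18.8% ± 0.835, and the 674 without one 13.3% ± 0.610. In the kallisto-format tables the medians were 14.2% ± 0.616 and 12.8% ± 0.726.

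**Figure D1:**
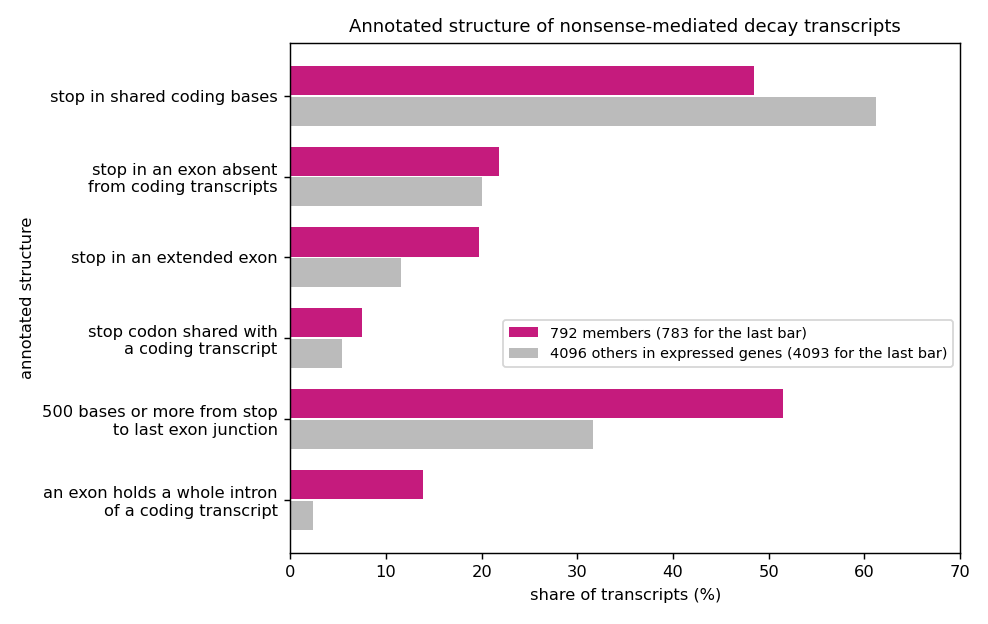
Share of transcripts (%, horizontal axis) with each annotated structure, for members (coloured bars) and for transcripts of the same class outside the rule in genes at TPM 2 or more in all libraries (grey bars). Members less often had the stop in shared coding bases (48.5% against 61.2%) and more often lay 500 bases or more from the last junction (51.5% against 31.6%) or held a whole coding intron (13.9% against 2.39%), as descriptions of the annotation with no test.

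As to the libraries, expected counts on genes totalled 13538619, 19949221 and 18224480 in replicates 1, 2 and 3, and members took 2.55%, 2.06% and 1.94% of them. Transcripts shorter than 200 bases and ribosomal RNA repeat genes held 53.5%, 42.9% and 48.9% of all TPM, which lowers every other TPM by a different factor in each library. All 13 macrophage markers were at TPM 1 or more in every library, with sums from 2903 to 3076. Of 46 markers of other cell types, 5 reached that level: Cd4, Cd22 and 3 of 4 endothelial genes led by Vwf. The defining markers of NK cells, neutrophils, erythroid cells, mast cells, fibroblasts and epithelial cells were below it. In bulk RNA, fewer cells of a type and less RNA per cell cannot be told apart.

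Most members were of low abundance. The median of their mean TPM was 6.07 (quartiles 3.91 and 11.0), against 6.70 for all 24089 transcripts that passed the same threshold. The range ran from 2.12 to 668, with 224 members at 10 TPM or more and 8 at 100 or more. They summed to 10058 ± 892 TPM, of which the 20 highest took 29.8% ± 3.81. Behind the median member stood 188 expected counts per library (quartiles 83.6 and 393), and 13 members had fewer than 10 in at least 1 library. The RSEM-format tables give a lower interval bound for TPM, and it stayed at 2 or more in all libraries for 497 members (62.8%), against 71.8% of all transcripts that passed. This interval is a separate estimate that need not contain the printed TPM.

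At the threshold itself, Emc1-204, Pou6f1-206 and Vezt-210 were just inside with a lowest library of 2 TPM. Rpgrip1-217 and Rasa3-206 were just outside at 1.99. Kallisto-format TPM of Rpgrip1-217 was 2.88, 2.38 and 1.86, while that of Rasa3-206 was 22.2, 13.7 and 17.4, so the edge was not the same by the other quantification.

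The share of a gene's TPM gives a measure that a library's scale does not touch. The median member held 14.5% ± 0.404 of its gene in the RSEM-format tables and 13.0% ± 0.604 in the kallisto-format tables. By the same measure, passing protein_coding transcripts of genes with several transcripts had a median share of 30.1% and retained_intron transcripts 19.3%. A share of at least 10% was reached by 527 members in the RSEM-format tables, 485 in the kallisto-format tables and 428 in both. At 25% the numbers were 205, 154 and 119, and at 50% they were 47, 36 and 26. In genes with several transcripts, 145 of 787 members (18.4%) were the highest transcript of their gene by RSEM-format TPM, against 35.2% of all passing transcripts. By kallisto-format TPM the figures were 132 (16.8%) and 27.0%.

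Summed over parent genes, members made up 17.0% ± 0.526 of RSEM-format TPM and 15.9% ± 0.712 of kallisto-format TPM. In the same genes and the RSEM-format tables protein_coding transcripts took 33.4% ± 1.30, retained_intron transcripts 44.2% ± 0.766 and processed_transcript 4.63% ± 0.241. Members stood above the protein_coding transcripts of their gene in 195 of 675 genes (206 in the kallisto-format tables), and took 50% or more in 55 (40). The 675 genes include those of 9 members without any protein_coding transcript, where a member stands above by definition. Retained_intron transcripts exceeded members in 458 genes (467). Over all protein-coding genes, transcripts of the nonsense_mediated_decay class held 4.27% ± 0.127 of RSEM-format TPM, and members accounted for 80.0% ± 2.15 of all TPM in the class. In the kallisto-format tables these values were 5.21% ± 0.251 and 54.6% ± 1.95.

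Whether a gene had a member followed its level. Among 2940 protein-coding genes with an annotated transcript of the class and gene TPM of 2 or more in all libraries, 674 (22.9%) had a member. The share was 4.95% of genes below 10 TPM (44 of 888), 190 of 1058 genes from 10 to 29 TPM, 38.0% from 30 to 99 (290 of 763) and 64.9% (150 of 231) at 100 or more. A fixed TPM threshold is easier to reach in an abundant gene, so counts of members by gene group are given below with the median gene TPM of the group.

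Gene groups differed widely in how many of these genes had a member. Interferon-stimulated genes (10 of 15, 66.7%), hnRNPs and splicing regulators (15 of 23, 65.2%) and SR proteins and relatives (16 of 25, 64.0%) were highest, with median gene TPM of 133, 86.9 and 102, against 18.1 over all 2940 genes. Lysosome and proton pump genes had a member in 6 of 12 at a median gene TPM of 67.4, antigen presentation genes in 2 of 6 at 53.7, spliceosome genes in 7 of 22 (31.8%) at 28.9, and translation factors in 4 of 13 at 14.5. Ribosomal protein genes had a member in 3 of 18 (16.7%) at 32.0, the pathway's own factors in 1 of 6 at 19.5, and TLR4 and NF-kB pathway genes in 2 of 15 (13.3%) at 25.3. The share of TPM held by transcripts of the class was then taken over the same genes of each list, those with an annotated transcript of the class and TPM of 2 or more. It was 10.5% ± 0.340 over all 2940 such genes (13.2% by kallisto-format TPM).

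Over the 15 interferon-stimulated genes the class held 29.7% ± 0.663 (27.6% ± 0.710 by kallisto-format TPM), and 18.1% ± 0.680 (20.8% ± 0.929) without Mx1. Over the 22 spliceosome genes it held 27.5% ± 0.742 (22.7% ± 1.01). That value rested on Ddx5: without it the share was 11.0% ± 1.35 (11.8% ± 1.15), within 1 SD of the share over all genes by RSEM-format TPM. All values without 1 gene, here and below, were added after seeing the data. In each list the gene left out was the one with the most TPM of the class. The share was 12.3% ± 0.194 in hnRNP genes (17.7% ± 0.914), 11.5% ± 0.489 in SR protein genes (14.0% ± 0.150) and 6.48% ± 0.229 in translation factors (6.24% ± 0.315). Without Rbm39 the hnRNP share was 11.3% ± 0.235 (11.4% ± 0.247). Without Srrm2 the SR protein share was 10.1% ± 0.349 (12.9% ± 0.700). Ribosomal protein genes had 5.21% ± 1.19 (5.76% ± 0.540) and TLR4 pathway genes 2.63% ± 0.0306 (3.59% ± 0.200). In 3 lists the kallisto-format value was over 1.5 times as high: 7.13% ± 1.86 against 14.3% ± 1.06 in the pathway's factors, 4.26% ± 0.684 against 7.20% ± 0.955 in lysosome genes, and 4.16% ± 0.645 against 14.3% ± 2.30 in antigen presentation genes. Without Smg1 the values of the pathway's factors were 2.24% ± 0.847 and 8.93% ± 1.49. Without Gusb those of lysosome genes were 3.26% ± 0.602 and 6.40% ± 0.993. Without Nlrc5 those of antigen presentation genes were 2.82% ± 1.55 and 4.83% ± 1.20. With all genes of each list kept, the order of the lists differed between the quantifications. Shares over all listed genes, with or without an annotated transcript of the class, were also added after seeing the data. They were lower in every list: 15.7% ± 0.804 (15.5% ± 0.994) in interferon-stimulated, 19.6% ± 1.27 (16.0% ± 0.137) in spliceosome and 0.652% ± 0.155 (2.39% ± 0.576) in antigen presentation genes.

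**Figure D2:**
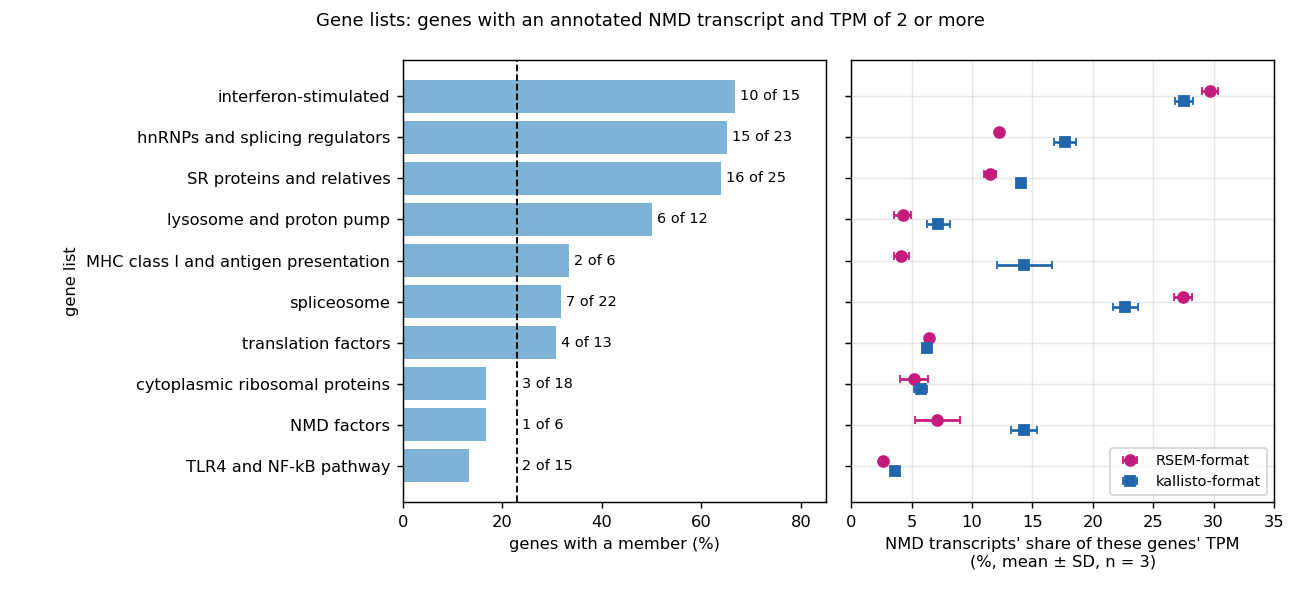
Left, percentage of genes with a member in each gene list, with numbers beside the bars and a dashed line at 22.9% for all 2940 genes. Right, share of the summed TPM of the same genes (those with an annotated transcript of the class and TPM of 2 or more) held by nonsense_mediated_decay transcripts (%, mean ± SD of 3 libraries) in both quantifications, highest in interferon-stimulated genes (29.7% and 27.6%) and lowest in the TLR4 pathway (2.63% and 3.59%).

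The decay machinery itself was present on chromatin as gene RNA. All 30 listed factor genes were at TPM 2 or more in every library. Smg1, the kinase that phosphorylates UPF1, was highest at 163, 169 and 160 TPM. Upf1, the helicase at the centre of the pathway, was at 21.5 ± 3.25 TPM and Upf2, its partner, at 19.2 ± 1.24. Smg5 and Smg6, which act on marked RNA, had means of 43.1 ± 2.81 and 22.1 ± 1.34. Only 6 of the 30 have an annotated transcript of the class, and Smg1-204 was the only member.

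Smg1-204 (ENSMUST00000179331.8, chr7:118134047-118212970, minus strand) was at 11.2, 18.2 and 18.8 TPM and held 9.81% ± 2.57 of the gene. Replicate 1 was lowest. Kallisto-format TPM was 27.7, 30.4 and 28.3, and the share of the gene 15.7%, 19.5% and 18.8%. All its bases lie in exons of coding transcripts, it spans 61 exons, and 10397 bases follow the stop before the last junction. Among the other factors, Smg5-202 stayed below the rule at a mean of 1.73 TPM. Dcp1a, a decapping factor, and Magohb, of the exon junction complex, had 1.18% and 1.45% of gene TPM in the class by RSEM-format TPM and 17.0% and 14.9% by kallisto-format TPM. Over all 30 factor genes the class held 2.28% ± 0.660 and 4.01% ± 0.448.

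SR proteins bind exons through RNA and promote their splicing. Their list had 19 members in 16 genes, 17 of which were also at 2 TPM or more in all kallisto-format tables. Tra2a encodes a splicing activator. Tra2a-202 (ENSMUST00000203820.2, chr6:49243924-49264011, minus strand) carries the added exon shown above and was at 51.2, 29.3 and 36.6 TPM, replicate 1 being highest. It held 42.7% ± 8.32 of the gene, while the gene's protein_coding transcripts held 11.1% ± 5.92 and its retained_intron transcripts 46.2% ± 4.07. By kallisto-format TPM it held 56.8% ± 3.57 and the protein_coding transcripts 1.99% ± 0.781.

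Srrm2-203 comes from the gene of a large matrix protein of the spliceosome, and is a short transcript of 494 bases. It was at 60.4, 122 and 124 TPM, with replicate 1 apart from the other libraries, and held 21.4% ± 6.05 of the gene (21.7% ± 5.91 in the kallisto-format tables). Son, a nuclear speckle protein, had 2 members, Son-212 at 51.6, 46.0 and 38.8 TPM and Son-208 at 24.5, 37.1 and 34.1. Replicate 1 was the highest library for Son-212 and the lowest for Son-208. Of their bases, 52.8% in Srrm2-203 and 49.7% in Son-212 lie outside coding exons. Unspliced RNA of the same gene may cover these bases too. Luc7l2 and Luc7l3 encode proteins associated with the U1 particle, and Luc7l2-204 and Luc7l3-204 held 13.8% ± 2.73 and 14.3% ± 5.22 of their genes.

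Classical SR protein genes were lower. Srsf3-201 was at 4.96, 6.65 and 4.71 TPM, and Srsf1-204 at 7.77, 3.29 and 3.95, while Srsf4-204 and Srsf6-201 had means of 3.62 and 3.35. Their shares ran from 5.33% in Srsf6 to 17.6% in Srsf4, and by kallisto-format TPM from 4.05% in Srsf3 to 27.1% in Srsf4. The CLK kinases, which phosphorylate SR proteins, contributed Clk1-210, Clk2-204, Clk3-209, Clk4-204 and Clk4-212. By RSEM-format TPM as deposited, Clk1-210 was even between libraries at 19.5 ± 1.28. It held 11.3% ± 1.48 of its gene, and Clk2-204 held 24.5% ± 3.10. By kallisto-format TPM these shares were 9.36% and 20.8%. The share of Clk4-212 was 2.87% by RSEM-format and 20.1% by kallisto-format TPM. Scaf11-202, from an SR-related factor, held 54.5% ± 7.98 (34.1% ± 5.49 in the kallisto-format tables).

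The hnRNP list had 26 members in 15 genes. Hnrnpa1, an abundant repressor of exon inclusion, was almost wholly assigned to them. Hnrnpa1-203 was at 45.8, 47.8 and 49.7 TPM and Hnrnpa1-204 at 32.8, 37.7 and 30.6. Together they took 93.9% ± 3.21 of the gene, and 88.0% ± 2.30 in the kallisto-format tables. Both use the stop codon of a protein_coding transcript, at chr15:103244012-103244014, and splice again after it, so their coding part can be of full length. The last junction follows that stop by 90 bases in Hnrnpa1-203 and by 1801 in Hnrnpa1-204.

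By RSEM-format TPM as deposited, Hnrnpu-206, from a scaffold protein of chromatin, was the most even of the abundant members at 85.4, 84.1 and 83.5. Its kallisto-format TPM was less even, at 88.8, 64.9 and 73.5. Hnrnpu-206 held 26.3% ± 1.96 of the gene (20.2% ± 1.13 in the kallisto-format tables). Rbmx, a relative of hnRNPs on the X chromosome, had Rbmx-205 at 12.1, 18.4 and 16.4 TPM with a share of 61.0% ± 4.81, and of 61.9% ± 4.90 in the kallisto-format tables. The estimates differed by less than 1 SD. Of the bases of Rbmx-205, 52.4% lie outside coding exons, and unspliced RNA of Rbmx may cover them too.

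Rbm39, a splicing cofactor, had 5 members, more than any other gene. Led by Rbm39-223 at 83.5, 64.0 and 64.0 TPM, they summed to 131, 126 and 122 TPM and held 15.9% ± 0.413. The kallisto-format sum was 357, 321 and 295 TPM, or 24.9% ± 0.892. Assignment among the 5 also moved: Rbm39-225 fell from a share of 4.11% to 0.727%, and Rbm39-224 went from 0.915% to 13.7%.

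Among spliceosome genes Ddx5 dominated. Ddx5 encodes an RNA helicase that acts in splicing and transcription. Ddx5-208 (ENSMUST00000133426.7, chr11:106781548-106788494, minus strand) was at 498, 471 and 425 TPM, the second highest member. It held 59.4% ± 3.34 of the gene, and Ddx5-201, the main protein_coding transcript, 15.2%. Kallisto-format TPM was 413, 332 and 321, with a share of 46.0% ± 11.7. That SD moved with 2 short processed_transcripts, Ddx5-203 and Ddx5-207, which were at 287 and 169 kallisto-format TPM in replicate 1 and at most 16.7 in the other libraries. As 35.2% of its bases lie outside coding exons and it holds a whole coding intron, intron-containing RNA of Ddx5 cannot be told apart from it.

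The other spliceosome members were lower. Prpf38b, a tri-snRNP associated factor, had Prpf38b-208 at 84.0, 50.3 and 53.7 TPM and Prpf38b-204 at 37.5, 18.6 and 28.2. Together they held 32.2% ± 6.44 of the gene. Dhx15-207, U2af2-204 and Sf1-201 had means of 14.7, 13.0 and 10.8 TPM and shares of 15.3%, 7.43% and 8.38%. By kallisto-format TPM their shares were 19.4%, 3.30% and 4.50%. Paxbp1-201, from a gene outside the lists, held 41.1% ± 4.18 at 109, 76.2 and 77.5 TPM.

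Among interferon-stimulated genes, Mx1 encodes an antiviral GTPase, and C57BL/6 mice carry a defective allele of it. Its 3 members, Mx1-205, Mx1-210 and Mx1-203, summed to 1408, 1023 and 684 TPM in replicates 1, 2 and 3, and to 1588, 877 and 629 in the kallisto-format tables. They held 53.8% ± 5.55 and 41.4% ± 1.90 of the gene, while its protein_coding transcripts held 9.87% ± 1.85 and 13.7% ± 0.809.

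Within Mx1 the quantifications disagreed on which transcript carried the signal. Mx1-205 (ENSMUST00000155233.7, chr16:97447037-97462905, minus strand) was the highest member at 808, 737 and 459 TPM, yet at 8.09, 65.1 and 36.3 in the kallisto-format tables. Mx1-203 moved the other way, from 81.0, 69.6 and 36.4 to 699, 422 and 291. Both transcripts have a last junction 311 bases after the stop, and Mx1-205 has no bases outside coding exons. Mx1-210 was high in both, at 519, 216 and 188 TPM and at 881, 390 and 302. Both tables place the sum and Mx1-210 high, while neither Mx1-205 nor Mx1-203 has a settled level.

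Samhd1, a nucleotide hydrolase that restricts viruses, had Samhd1-204 at 260, 240 and 188 TPM. It held 27.8% ± 2.42 of the gene (19.1% ± 1.23 in the kallisto-format tables). Of its bases 48.4% lie outside coding exons, and it holds a whole coding intron. Intron-containing RNA of Samhd1 therefore cannot be told apart from it. Oasl2 and Oas1g belong to the oligoadenylate synthetase family, which senses double-stranded RNA. Oasl2-205 was at 184, 140 and 143 TPM with 29.6% ± 2.32, and Oas1g-203 at 79.0, 79.2 and 63.0 TPM with 56.1% ± 4.32 (45.2% ± 1.91). Oas1g-203 exceeded the protein_coding transcripts of its gene in both quantifications (15.3% ± 2.81 and 8.79% ± 0.351). The Oas1 genes lie in a cluster of close copies, so reads of Oas1g may be split between them.

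Rsad2, which encodes the antiviral enzyme viperin, showed the largest spread of these. Rsad2-202 was at 203, 57.5 and 48.3 TPM, and at 441, 144 and 119 in the kallisto-format tables. Replicate 1 stood above both other libraries. Its share was 16.3% ± 6.86 and 28.9% ± 5.57. Ifi35-203 held 48.8% ± 2.22 at 42.7, 38.1 and 31.2 TPM, and Xaf1-201 12.0% ± 2.75 in the RSEM-format and 48.4% ± 0.852 in the kallisto-format tables. Xaf1-201 has 415 bases. Its last junction lies 29 bases beyond the stop, so it is 1 of the 6 members at 50 bases or fewer.

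Most members of this list had their highest level in replicate 1. Of 13 members, 11 were highest in replicate 1 by RSEM-format TPM, against 38.3% of all members. The count was 12 by kallisto-format TPM, against 63.6% of all members, and 12 by TPM rescaled without short and ribosomal RNA, against 55.4%. They summed to 2308, 1674 and 1227 TPM. Their share of the gene was highest in replicate 1 in 5, in replicate 2 in 4 and in replicate 3 in 4. The order of levels and the order of shares thus differed. Replicate 1 also had the largest RNA input, and its part in the difference was not tested.

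**Figure D3:**
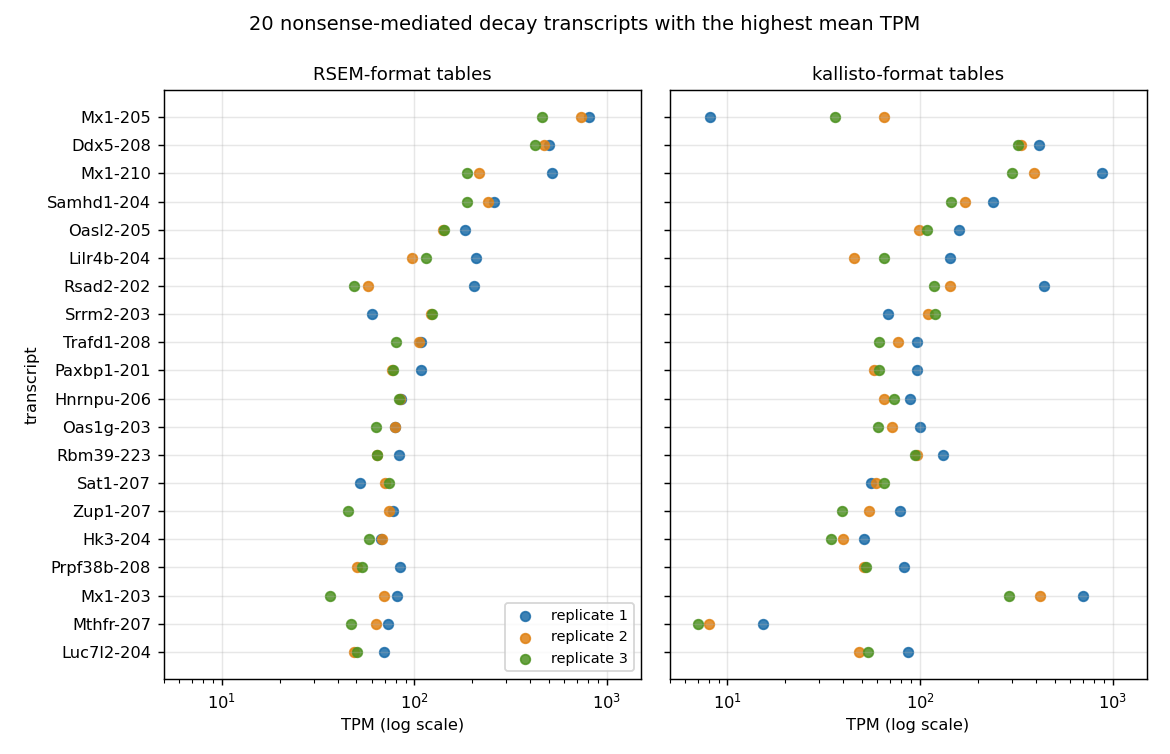
TPM (log axis) of the 20 members with the highest mean RSEM-format TPM, 1 point for each library, in the RSEM-format tables (left) and the kallisto-format tables (right). Mx1-205 falls from 459 to 808 TPM on the left to 8.09 to 65.1 on the right and Mx1-203 moves up, while Ddx5-208, Samhd1-204 and Oasl2-205 stay close.

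Of the TLR4 and NF-kB list, Ikbkb-208, from the kinase that releases NF-kB, was at 8.77, 9.81 and 9.29 TPM with 12.2% ± 0.329, and Tbk1-204, from the kinase upstream of IRF3, at 7.85, 4.29 and 4.06 with 3.29% ± 0.699. Nlrc5-205, from the MHC class I transactivator, was at 28.6, 15.8 and 12.0 TPM. It held 4.88% of the gene, and 20.7% in the kallisto-format tables. Lilr4b-204, from an inhibitory leukocyte receptor gene, was at 209, 96.8 and 115 TPM with 17.3% ± 4.49. Reads of Lilr4b may be shared with the similar neighbouring gene Lilrb4a, so its level is uncertain. Trafd1-208, from a negative regulator of TLR signalling, was at 108, 106 and 80.5 TPM with 18.8% ± 0.545.

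Genes of translation and the lysosome gave mostly low members. Rpl12-201, Rps13-205 and Rps19-205 were the ribosomal protein members, at means of 6.94, 4.16 and 2.71 TPM. Rpl12-201 held 22.3%, 19.3% and 24.3% of the gene by RSEM-format TPM and 1.92%, 3.62% and 11.1% by kallisto-format TPM. Eif4a2, a helicase of translation initiation, had 3 members that together held 7.59% ± 1.10 of the gene, and 2.72% ± 0.438 in the kallisto-format tables. Eef1b2-203 had the largest share of the translation factors, 37.8% ± 15.2 at 7.35, 5.79 and 3.07 TPM. Among lysosomal genes Gusb-206, from beta-glucuronidase, was at 23.5 ± 4.08 TPM with 30.5% ± 5.84, and 33.0% ± 3.40 in the kallisto-format tables. Tcirg1-210 held 0.979% ± 0.147 of its proton pump gene.

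**Figure D4:**
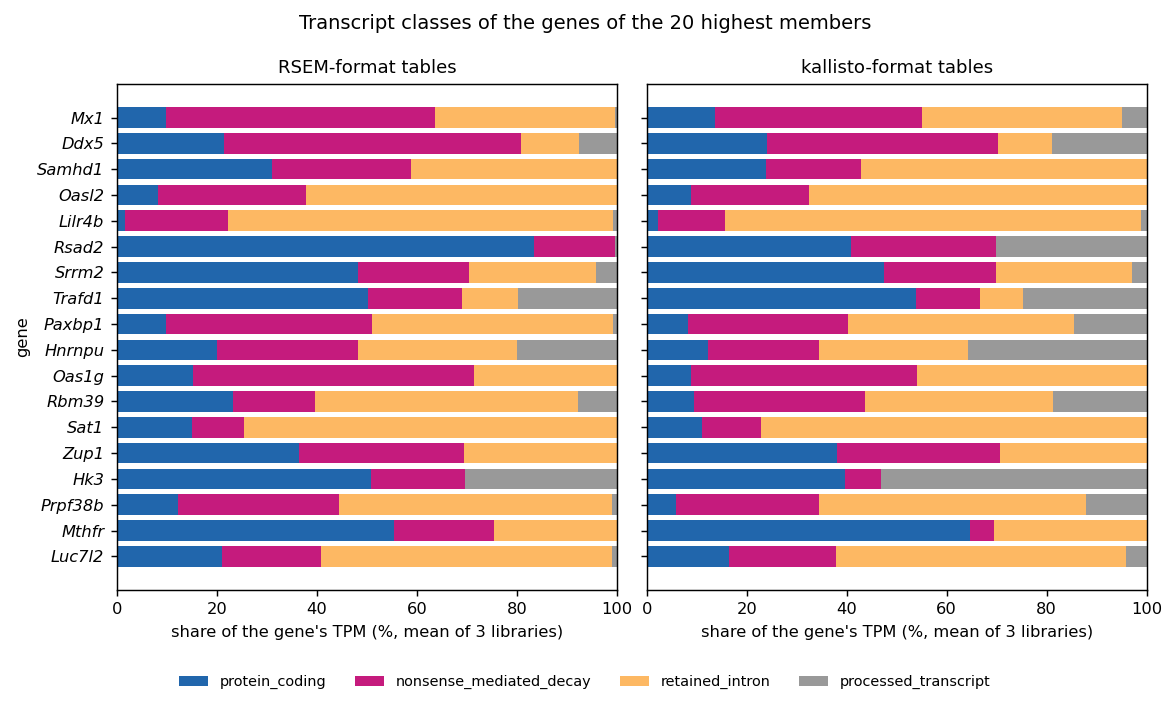
Transcript classes as shares of gene TPM (%, mean of 3 libraries) for the 18 genes of the 20 highest members, in the RSEM-format tables (left) and the kallisto-format tables (right). The nonsense_mediated_decay part of Ddx5, Mx1 and Oas1g is 59.4%, 53.8% and 56.1% on the left and stays above 40% on the right.

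The members with the largest shares in genes of at least 10 TPM were of several kinds. Gm20605-201 held 100% of its gene because it is the only transcript, and it is 1 of 16 members tagged as readthrough transcripts. It overlaps Lrch4 with 67.9% of its bases and Sap25 with 26.9%, so its 42.1, 57.6 and 47.9 TPM share sequence with both. Of the 9 members in genes without a protein_coding transcript, all are readthrough transcripts of this kind. Gm42715-201, another of them, has 76.4% of its bases in Srcap.

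Among ordinary genes, Cd300c2-202, from a myeloid receptor gene, held 84.3% ± 2.97 at 31.2, 33.2 and 29.6 TPM (68.0% ± 3.24 in the kallisto-format tables). Psmc5-202, from a proteasome ATPase, held 78.7% ± 11.8 at 10.9, 9.00 and 11.5 TPM, and 79.3% ± 12.0. It holds a whole coding intron, which intron-containing RNA of Psmc5 also covers. Khnyn-203 held 67.4% ± 5.21 and 62.6% ± 4.49, and Gtf2ird2-202 63.6% ± 2.04 and 63.4% ± 0.404. Of their bases, 34.9% and 56.4% lie outside coding exons, and unspliced RNA of the same gene may cover these too. Cd300c2-202, Psmc5-202, Khnyn-203 and Gtf2ird2-202 stayed above 50% in both quantifications. Rnf114-203 (77.0% and 30.2%), Mill2-203 (72.4% and 29.2%), Sh2b3-205 (75.0% and 44.1%) and Tor3a-206 (59.6% and 19.7%) did not.

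Of the 675 parent genes, 582 had 1 member, 74 had 2, 15 had 3, and Bclaf1, Tpcn2 and Fes had 4. Fes, a myeloid tyrosine kinase, had members that summed to 98.2, 94.9 and 71.6 TPM and held 47.1% ± 6.65 of the gene (50.1% ± 7.78 in the kallisto-format tables). Fes-205 holds 6 coding introns, Fes-202 holds 2 and Fes-210 holds 1, while Fes-206 holds none. Intron-containing RNA of Fes cannot be told apart from the members that hold introns. Tpcn2, an ion channel of the lysosome, had 33.8% ± 8.12 and 34.0% ± 5.71. Bclaf1, a factor of RNA processing, had 26.1% ± 1.53 and 33.7% ± 0.498. Among genes with 3, Vps11 (61.3% ± 3.59), Senp2 (56.5% ± 5.56), Mx1 and Snapc3 (50.6% ± 6.49) gave their members the majority of RSEM-format TPM, and Vps11 did so in the kallisto-format tables too (56.3% ± 2.84). Clasrp and Prpf4b, both of splicing, followed at 42.5% ± 6.89 and 40.2% ± 3.80, and Safb2 was lowest at 5.12% ± 1.46.

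The quantifications agreed in part across members, and somewhat less often than across all passing transcripts. Of all 24089 passing transcripts, 21418 are in genes with several transcripts, and the rest have no other transcript of their gene to share reads with. At the threshold, members were close to passing protein_coding transcripts. At the same threshold 693 of 792 members (87.5%) also passed in all kallisto-format tables, against 92.0% of all transcripts that passed the RSEM-format rule, 88.4% of protein_coding and 95.4% of retained_intron transcripts. Mean TPM lay within 2-fold for 611 members (77.1%), against 85.5% of all passing transcripts. It was 2-fold or more higher in the kallisto-format tables for 110 and lower for 71, and 5 members (Myof-205, Bclaf1-208, Vps13c-203, Sbf1-204 and Golga1-208) were listed there at 0 in all libraries. Across the 792 members, which are not independent and share reads, Spearman's rho was 0.680 for mean TPM and 0.731 for share. The share was lower in the kallisto-format tables for 491 members and higher for 295, and moved by more than 10 percentage points for 181.

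Members with more bases outside coding exons passed more often. Transcripts of other classes can cover these bases too. The kallisto-format threshold was met by 81.5% of the 437 members with under 10% of bases outside coding exons, by 94.6% of the 258 with 10 to 49% and by 96.6% of the 88 with 50% or more. Median RSEM-format shares in these groups were 12.9%, 14.9% and 23.9%. In 202 of 783 members no base lay outside coding exons. These differ from coding transcripts only in how shared bases are joined and where the transcript ends. In 65 of 783 members (8.30%) every intron was also an intron of a protein_coding transcript.

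Applied to the kallisto-format tables, the rule would take 1639 transcripts, of which 946 are not members. Of these, 147 were listed at 0 in all RSEM-format tables. The largest disagreements upward were Gm42715-201 (59.3% to 99.1%), Ifi209-202 (6.47% to 49.4%), Nhlrc2-202 (22.1% to 59.5%), Fcgr1-202 (5.36% to 42.3%), Xaf1-201 and Rap1b-202 (9.12% to 41.7%). Of these Nhlrc2-202, Fcgr1-202, Xaf1-201 and Rap1b-202 are 415 to 600 bases long. Downward they were Rnf114-203, Mill2-203, Habp4-203 (45.1% to 4.30%), Gm42715-202 (40.7% to 0.882%), Tor3a-206 and Nlrc4-202 (47.2% to 8.56%). Gpnmb-202, a transcript of 365 bases from a macrophage glycoprotein gene, was at 33.4, 63.9 and 66.7 TPM and at 434, 194 and 290 in the kallisto-format tables.

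**Figure D5:**
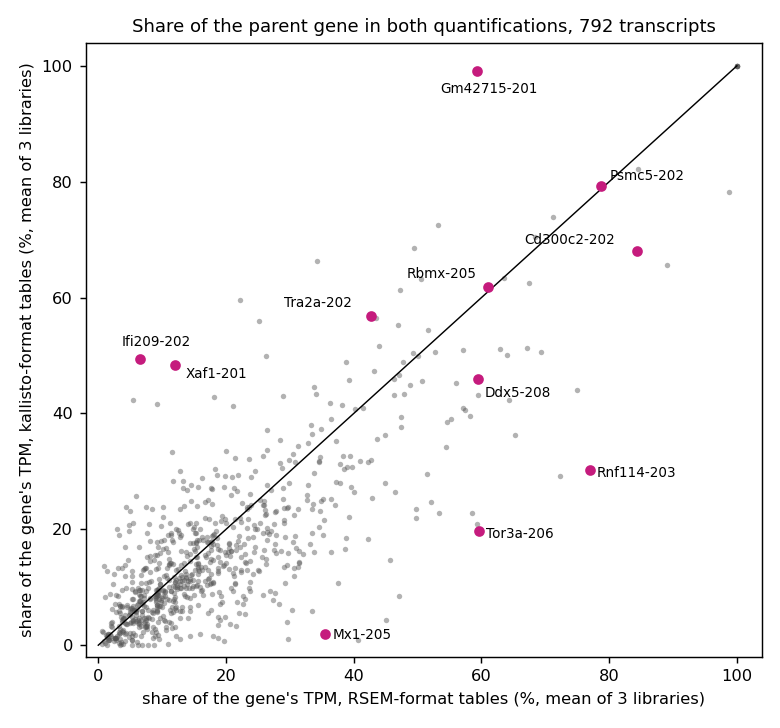
Share of the parent gene's TPM (%, mean of 3 libraries) in the RSEM-format tables (horizontal) against the kallisto-format tables (vertical), 1 point for each of the 792 members with the line of equality. Psmc5-202 and Rbmx-205 lie near the line, Mx1-205, Tor3a-206 and Rnf114-203 far below it, and Ifi209-202, Xaf1-201 and Gm42715-201 far above it.

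Replicates differed modestly for most members. The median SD of log2(TPM + 0.1) was 0.28, against 0.24 for all passing transcripts, and the highest library exceeded the lowest by 2-fold or more in 139 members (17.6%, against 12.2%). The highest library was replicate 1 for 303 members (38.3%, against 34.6% of all passing transcripts), replicate 2 for 309 (39.0%, against 45.8%) and replicate 3 for 180 (22.7%, against 19.6%). This order depended on scale: with TPM rescaled over transcripts of at least 200 bases outside the ribosomal RNA repeat genes, an alternative added after seeing the data, the numbers were 439, 157 and 196. In the kallisto-format tables they were 504, 165 and 123. The share of the gene, which scale leaves unchanged, was highest in replicate 1 for 329 members, in replicate 2 for 202 and in replicate 3 for 261.

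Of the 8 most variable members, all but Rsad2-202 had a mean below 20 TPM. Gtpbp2-211 was at 3.32, 9.51 and 24.2 TPM (SD of log2 1.42) and Taf1d-204 at 2.09, 8.86 and 12.0 (1.32), both lowest in replicate 1. Fam13b-202 (1.15), Rsad2-202 (1.13), Ifi209-202 (1.08), Fes-206 (1.05), Syt8-211 (1.02) and Lrrc45-202 (1.00) followed. Fes-206, of 362 bases, was at 32.4, 8.95 and 9.33 TPM and was highest in replicate 1, as was Ifi209-202 at 9.58, 3.88 and 2.08. In Syt8-211 and Lrrc45-202 replicate 1 was lowest.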

How the data were processed

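Total RNA of the chromatin fraction was measured in 3 libraries of 1 condition. Per the deposited notes the authors used mm10 with GENCODE M21. Their RSEM-format tables, made from a transcriptome alignment, hold expected counts, TPM and, per the file headers, interval bounds of TPM. Their kallisto-format tables, made from the reads, hold estimated counts and TPM per the file headers. The aligner, quantifiers, versions and strand setting are not named in the notes or labels used here, so reads of overlapping antisense genes may be mixed: 154 members have bases in exons of an opposite-strand gene. TPM has a fixed sum, so abundant short RNAs lower all other values. TPM rests on estimated assignment of reads that several transcripts share.

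Transcripts were matched by identifier. The kallisto-format tables held 97 transcripts absent from the RSEM-format tables, none of this class, which were set to 0 there. A share is a transcript's TPM over the summed TPM of its gene in the same table. Structure and sequences came from GENCODE M21, and the structure code was checked on toy transcripts with known answers. Python 3.11.15, numpy 2.4.6, pandas 2.3.3 and matplotlib 3.10.9 were used. Depth per library was 13538619 to 19949221 expected counts. No test was made, since there is 1 condition and TPM chose the members, and spread is given as an SD over 3 libraries.

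Members and lists were chosen with earlier results of these data known. The text names the 20 highest members by mean TPM, the 12 largest shares in genes of at least 10 TPM, up to 6 per gene list, the 6 largest rises and falls of share between quantifications, the 6 highest by kallisto-format TPM, the 8 largest SD of log2(TPM + 0.1), those nearest to the threshold on either side, and genes with 3 or more members. Some items these rules or lists name are not reported here. Sequences shown are a selection from members of high level or share and from the SR protein and hnRNP lists. Scaf11-202, Rbm39-224, Ifi35-203, Dcp1a, Magohb, Srsf and Clk members, Smg5-202 and those listed at 0 were named after their values were seen. Of the listed genes, Ddx39a and Mx2 were not found among protein-coding genes under these symbols. Alternatives covered the threshold, the quantification, counts in place of TPM, a minimum of 10 counts, retained_intron transcripts left out of the denominator, rescaled TPM, list shares over all listed genes or without 1 gene, a pseudocount of 1, and leaving out each replicate.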

Additional observations from a re-analysis of the deposited data

How the results depend on the processing

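The number of members depended on the threshold. From 792 transcripts in 675 genes it became 1235 in 1015 at 1 TPM, 375 in 325 at 5 TPM, 1639 in 1331 in the kallisto-format tables, and 1236 in 1020 with rescaled TPM. Leaving out each replicate gave 855 to 924 members in 722 to 775 genes. The median share of 14.5% was 12.0% and 17.8% at 1 and 5 TPM, 13.8% by expected counts and 25.8% without retained_intron transcripts in the denominator, with 13.4% to 14.4% over left-out replicates. The summed share of 17.0% was 15.6%, 19.4%, 17.6% and 30.4% under these settings, and 16.0% to 17.0% over left-out replicates. The 145 members highest in their gene became 85 at 5 TPM and 242 without retained_intron transcripts, and 145 to 162 over left-out replicates. In the kallisto-format tables the median share of 13.0% was 11.5% and 15.2% at 1 and 5 TPM, 14.0% by estimated counts, and 12.1% to 13.1% over left-out replicates. The summed share of 15.9% was 17.2% at 5 TPM, 18.8% by estimated counts, and 15.1% to 16.1% over left-out replicates. Members at the threshold there numbered 1087 of 1235 at 1 TPM, 315 of 375 at 5 TPM, and 750 to 783 over left-out replicates. The class share of 4.27% was 3.97% by expected counts and 5.21% in the kallisto-format tables, and 4.20% to 4.33% over left-out replicates. A minimum of 10 counts left 779 members and moved no share by 1 SD. Between quantifications, 94 of 133 named shares and 90 of 133 named mean TPM moved by 1 SD or more. No paired analysis was possible because there is only 1 group. The deposited interval reached below 2 TPM in at least 1 library for 295 of 792 members, and whether depth or shared sequence set it was not tested.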
